A study of Schizosaccharomyces pombe with 3 samples.

Results

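The regions described here are places on the chromosome arms of fission yeast, Schizosaccharomyces pombe, at which the cohesin subunit Psc3 passed a fixed level of enrichment on the clr4d array and stayed under a lower level on the cdc10-v50 and wild-type arrays. They were chosen from the readout itself. On each array the log2 ratio of ChIP over input was centred on the array's median, and a running mean was taken over 3 neighbouring probes of 300 bp spacing. A probe was a member where its running mean was at least 1 in clr4d and below 0.7 in both other arrays, and members within 1 kb of each other were joined. Probes within 100 kb of a chromosome end were not counted as arm, nor were those at 3.70 to 3.84 Mb of chromosome I, 1.54 to 1.70 and 2.10 to 2.16 Mb of chromosome II and 1.01 to 1.2 Mb of chromosome III, which hold the centromeres and the mating-type region. By this rule 223 sites with 527 probes were found among 37102 arm probes, of 41551 genome probes in all. One of them, of 2 probes, lay on the deleted clr4 gene and was set aside, which left 222 sites with 525 probes.

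Cells of 3 genotypes were compared, with 1 array each. The clr4d cells, which lack clr4, were grown at 30 °C in rich medium. The cdc10-v50 cells have a mutant cdc10 and were grown at 26 °C, then held at 35 °C for 4 h to arrest them in G1. Wild-type cells, grown at 30 °C, carried Psc3-GFP::kanMX together with leu1-32, ade6-216 and mat1Msmto. The labels give no marker other than clr4d or cdc10-v50 for the mutants, and all 3 sample titles name Psc3-GFP. All 3 cultures were fixed at 18 °C for 30 min and treated with DMA for 45 min. Chromatin was precipitated with an antibody against GFP, and the ChIP DNA (Cy5) and input DNA (Cy3) were hybridised together to a tiling array. The G1-arrested and the growing cultures differ in cell-cycle stage, temperature and allele together, so these cannot be told apart.

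Cohesin is a ring-shaped complex that holds sister chromatids together. Psc3 is its stromalin (SA/STAG-type) subunit in mitotic cells. Along the arms of fission yeast chromosomes cohesin is known to gather where transcription of neighbouring genes converges, and at centromeres it is also brought in by heterochromatin. Clr4 is the histone H3 lysine 9 methyltransferase on which that heterochromatin depends, and Cdc10 is part of the transcription factor that turns on genes for the start of S phase.

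The 4 tiles of chromosome III printed here show different kinds of member: a single very bright tile, a tile in a gene of recombination, an intergenic tile whose input signal was low, and a tile of moderate ratio in a small gene. The sequences are the plus strand of RefSeq assembly ASM294v3, 5′ to 3′. Capitals mark the bases of the noncoding RNA gene prl6 in the first and coding bases in the mus81 and cox19 tiles; the tile between eap1 and SPCC1020.13C holds neither and has no capitals.
prl6, chr3:968401-968700: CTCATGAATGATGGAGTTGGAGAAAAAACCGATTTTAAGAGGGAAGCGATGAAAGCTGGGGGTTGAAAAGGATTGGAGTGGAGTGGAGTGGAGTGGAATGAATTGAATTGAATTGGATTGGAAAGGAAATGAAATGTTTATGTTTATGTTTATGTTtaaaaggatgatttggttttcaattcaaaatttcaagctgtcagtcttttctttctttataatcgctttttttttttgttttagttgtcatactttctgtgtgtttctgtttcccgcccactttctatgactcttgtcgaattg
mus81, chr3:462901-463200: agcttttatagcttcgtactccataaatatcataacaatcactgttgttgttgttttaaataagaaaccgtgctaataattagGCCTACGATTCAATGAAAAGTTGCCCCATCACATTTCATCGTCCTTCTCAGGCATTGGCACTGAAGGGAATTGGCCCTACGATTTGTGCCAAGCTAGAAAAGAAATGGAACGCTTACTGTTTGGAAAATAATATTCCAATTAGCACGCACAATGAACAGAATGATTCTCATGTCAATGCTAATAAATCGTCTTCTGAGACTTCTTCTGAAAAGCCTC
between eap1 and SPCC1020.13C, chr3:751801-752100: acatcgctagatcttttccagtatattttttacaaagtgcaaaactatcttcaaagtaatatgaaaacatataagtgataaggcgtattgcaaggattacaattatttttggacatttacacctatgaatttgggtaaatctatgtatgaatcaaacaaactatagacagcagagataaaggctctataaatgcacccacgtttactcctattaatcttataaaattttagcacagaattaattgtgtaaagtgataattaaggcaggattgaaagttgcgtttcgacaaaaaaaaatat
cox19, chr3:568801-569100: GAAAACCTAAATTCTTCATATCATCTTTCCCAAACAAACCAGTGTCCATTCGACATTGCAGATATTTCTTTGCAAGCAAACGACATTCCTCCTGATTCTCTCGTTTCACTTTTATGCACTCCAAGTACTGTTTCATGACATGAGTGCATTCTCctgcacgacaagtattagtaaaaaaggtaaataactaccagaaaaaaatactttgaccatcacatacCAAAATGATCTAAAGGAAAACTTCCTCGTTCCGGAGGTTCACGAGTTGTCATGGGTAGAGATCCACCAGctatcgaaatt
The prl6 tile carried the highest clr4d ratio of any member probe, 6.57, against 1.02 in cdc10-v50 and 1.26 in wild type (all centred log2 ratios). The mus81 tile read 1.85 in clr4d, 0.54 in cdc10-v50 and -0.12 in wild type. The tile between eap1 and SPCC1020.13C read 1.83 in clr4d, 0.24 in cdc10-v50 and -0.35 in wild type. The cox19 tile read 1.09 in clr4d, 0.39 in cdc10-v50 and -0.03 in wild type. The clr4d value was the highest of the 3 in each tile, an order that the rule favours.

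The arrays bore out the deletion. The median input signal over the 5 clr4 probes was 7.51 in clr4d, 1676 in cdc10-v50 and 1689 in wild type. Median red signals over all genome probes were 8767 in clr4d, 8360 in cdc10-v50 and 20214.5 in wild type. These medians are on another scale than the processed signals quoted for single tiles and cannot be set against them. The wild-type array had 2273 genome probes saturated in the ChIP channel. The clr4d and cdc10-v50 arrays were scanned at 20 bits and the wild-type array at 16 bits, with another version of the software, so genotype and scan cannot be told apart between clr4d and wild type. Only 4 member probes, in 4 sites, were saturated in wild type, and 15 were marked non-uniform on the cdc10-v50 array and were left out of its values. There are no replicate arrays, so no difference below carries a test, and each SD is a spread between probes.

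The limits were met by 1.42% of arm probes. A running mean of at least 1 was reached by 7.01% of arm probes in clr4d, 5.19% in cdc10-v50 and 6.12% in wild type. The same limits turned to another array gave 44 sites with 107 probes (0.289% of arm probes) high in cdc10-v50 alone and 116 sites with 253 probes (0.684%) high in wild type alone. A further 195 sites with 521 probes (1.41%) were at 1 or more in wild type and below 0.7 in clr4d, whatever cdc10-v50 read, and their probes had median ratios of 0.44 in clr4d, 0.70 in cdc10-v50 and 1.16 in wild type. Under the rule's limits the clr4d array gave the most sites, and its arm ratios also had the widest spread, with an SD of 0.68 against 0.58 in cdc10-v50 and 0.63 in wild type. With all arrays scaled to one SD the numbers were 154 sites for clr4d, 88 for cdc10-v50 and 104 for wild type. Loess within each array gave 243 for clr4d, 26 for cdc10-v50 and 54 for wild type. Centring on arm probes gave 206 for clr4d, 51 for cdc10-v50 and 137 for wild type. A running median, chosen after seeing the data, gave 228 for clr4d, 42 for cdc10-v50 and 114 for wild type. With another background correction (normexp) the order of clr4d and wild type turned round, at 276 sites for clr4d, 60 for cdc10-v50 and 424 for wild type, and 230 of the 525 member probes met the limits.

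Most sites were small and close to the threshold. Of the 222, 80 held 1 probe, 70 held 2, 30 held 3 and 24 held 4, and 18 held 5 or more. Their median length was 0.6 kb and the longest spanned 5.4 kb. At the peak of a site the running mean in clr4d ran between 1.00 and 2.75 with a median of 1.16. There were 72 sites under 1.1 and 23 at 1.5 or more. The 5 sites nearest above the threshold read between 1.00102 and 1.00589 in clr4d. The 5 maxima nearest below it that met the other limits read between 0.994217 and 0.999959. Among arm probes that met both other limits, 289 lay between 0.9 and 1 in clr4d and 204 between 1 and 1.1, so the threshold cut through a continuous range.

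**Figure D1:**
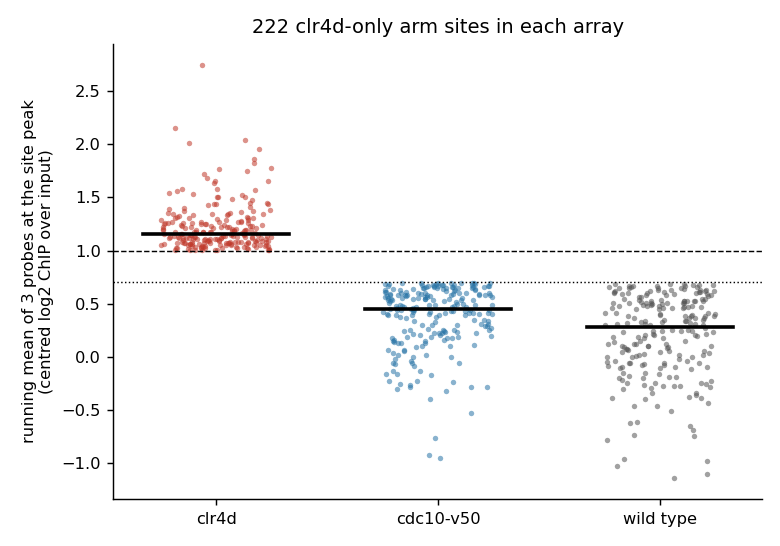
Running mean over 3 probes (centred log2 ChIP over input, vertical axis) at the peak of each of the 222 sites in clr4d, cdc10-v50 and wild type; each point is a site, black bars are medians (1.16, 0.45 and 0.28), and the dashed and dotted lines are the limits of 1 and 0.7 that chose the sites. The gap between the limits is made by the rule; the clr4d points lie mostly just above 1, and the wild-type points spread widely, with 64 of 222 below 0.

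The other arrays were below the limit without being empty at these sites. The median peak running mean was 0.45 in cdc10-v50 and 0.28 in wild type. In cdc10-v50, 93 sites read between 0.5 and 0.7, 46 between 0.35 and 0.5, 55 between 0 and 0.35, and 28 below 0. In wild type, 64 sites read between 0.5 and 0.7, 33 between 0.35 and 0.5, 61 between 0 and 0.35, and 64 below 0. Both stood at 0.35 or more at 77 sites, and both below 0 at 19. The name given to these sites thus means below a limit in cdc10-v50 and wild type, not without enrichment.

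Over the 525 member probes the ratio had a median of 1.19 in clr4d (SD 0.56), 0.41 in cdc10-v50 (SD 0.35) and 0.26 in wild type (SD 0.40). All arm probes had medians of -0.02 in clr4d, -0.05 in cdc10-v50 and -0.06 in wild type. Clr4d exceeded wild type at 519 of 525 member probes, with a median difference of 0.93 (SD 0.67). It exceeded cdc10-v50 at 504 of the 510 measured in both, with a median difference of 0.77 (SD 0.64). The rule sets this order on running means of the same ratios, so these counts and differences follow largely from it. Per site the mean difference of clr4d minus wild type had a median of 1.03, a 2.04-fold higher ratio, with quartiles of 0.73 and 1.37. It was at least 1 at 116 sites and under 0.5 at 24. In arm probes as a whole, 3.12% had a running-mean difference of clr4d minus wild type of at least 1 and 1.23% had a difference of wild type minus clr4d of at least 1. The probes with an R mark in their name and those without, which alternate along the tiling, gave medians of 1.18 and 1.19 in clr4d. Each window of 3 probes mixes both kinds, so like values follow in part from the rule.

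Peaks were placed at the highest running mean of clr4d, from the same ratios that chose the sites. A crest of about 3 tiles in clr4d alone is therefore built into the profiles. Around the 222 site peaks the median ratio at the peak probe was 1.18 in clr4d, 0.43 in cdc10-v50 and 0.25 in wild type. At 1.5 kb from the peak it was 0.51 in clr4d, 0.30 in cdc10-v50 and 0.44 in wild type. Between 5 and 10 kb away it was 0.06 in clr4d, -0.05 in cdc10-v50 and -0.04 in wild type. The wild-type median was lower at the clr4d peak than beside it, where the rule sets no upper limit, and the sites lay in stretches where all 3 arrays were above their distant flanks. At the 159 sites of 930 probes (2.51% of arm probes) that reached 1 in all 3 arrays, the medians at the peak were 1.56 in clr4d, 1.37 in cdc10-v50 and 1.36 in wild type. At 1.5 kb from those peaks they were 0.91 in clr4d, 0.84 in cdc10-v50 and 1.01 in wild type. The shared peaks were placed on clr4d in the same way. To their right clr4d fell from 1.54 at 0.3 kb to 1.25 at 0.6 kb, while wild type read 1.32 and 1.30. Different limits chose the shared and the clr4d-only sites, so a difference in width between them was not tested.

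**Figure D2:**
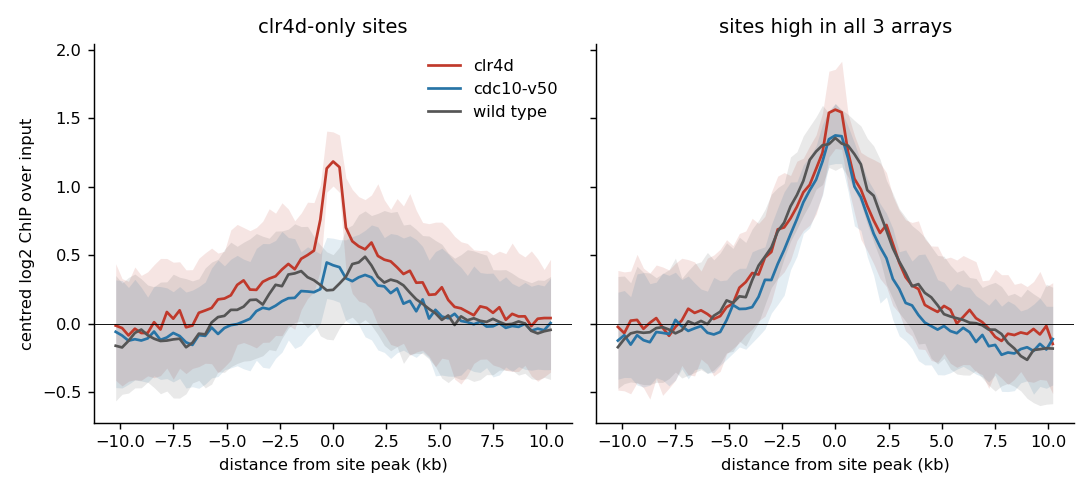
Median centred log2 ChIP over input (vertical axis, lines; shading spans the quartiles over sites) against distance from the site peak in kb, for the 222 clr4d-only sites (left) and the 159 sites at 1 or more in all 3 arrays (right). At clr4d-only sites the clr4d line stands at 1.18 at the peak and 0.51 at 1.5 kb, and the wild-type line dips at the peak. Peaks are placed at the highest clr4d running mean, which favours a crest in clr4d.

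Some sites lay in or beside larger cohesin regions. When the clr4d array alone was joined at 1 or more, 50 sites lay in a clr4d stretch that also held a probe at 1 or more in wild type or cdc10-v50, 40 of them with such a wild-type probe, and 172 did not. In 127 sites the clr4d stretch was made of member probes throughout. A wild-type probe at 1 or more lay within 1 kb of 37 sites (16.7%), against 10.7% of arm probes (those at 1 or more in wild type themselves included). Of the 222 sites, 121 were more than 5 kb from such a probe, a smaller share than the 72.9% of arm probes that were. The median distance was 6.3 kb for sites and 12 kb for arm probes. Another site lay within 10 kb of 101 sites. How many would lie so near each other from their number alone was not tested.

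Chromosome I held 122 sites, chromosome II 57 and chromosome III 43. Per 1000 arm probes, chromosome I had 7.14 sites, chromosome II 4.25 and chromosome III 6.52. Chromosome II was also lowest in the share of arm probes at 1 or more in clr4d, 5.85% against 8.01% on chromosome I and 6.69% on chromosome III, while in wild type chromosome II had the highest share, 6.58% against 6.28% and 4.70%.

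Several of the highest sites held 1 tile far brighter in clr4d than its neighbours. The site at prl6 (chromosome III, array positions 968101 to 969000) had the highest running mean, 2.75 in clr4d, against 0.41 in cdc10-v50 and 0.39 in wild type. prl6 is a gene for a polyadenylated long noncoding RNA. Its middle tile had a ChIP signal of 17797 in clr4d, 379 in cdc10-v50 and 1299 in wild type, over an input of 192 in clr4d, 195 in cdc10-v50 and 483 in wild type. The tile to its left read 0.23 in clr4d and 0.17 in wild type and was flagged in cdc10-v50. The tile to its right read 0.83 in clr4d, 0.10 in cdc10-v50 and -0.05 in wild type. The window with the highest running mean was centred on the right tile and did not hold the left one. Without the middle tile of the site, that window averaged 0.83 in clr4d, under the threshold of 1.

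The pattern recurred elsewhere. There were 10 member probes with a clr4d ratio of 3 or more, among 21 such arm probes in clr4d, 6 in cdc10-v50 and 0 in wild type. On chromosome I, the site at 426301 to 427200 had a middle tile of 4.77 in clr4d, -0.13 in cdc10-v50 and 0.07 in wild type. Its highest window was centred on the next tile to the right, and averaged -0.24 in clr4d without the middle tile. The site at 1893001 to 1893900 held a tile of 4.40 in clr4d, 0.41 in cdc10-v50 and 1.43 in wild type, and the site at 3147301 to 3148800 one of 4.29 in clr4d, 0.66 in cdc10-v50 and 0.26 in wild type. On chromosome II, the site at 3486601 to 3488400 held a tile of 3.98 in clr4d, -0.33 in cdc10-v50 and 0.35 in wild type. These 5 tiles had ChIP signals between 17346 and 31588 in clr4d, and the highest signal among them in the other arrays was 5568 in cdc10-v50 and 5168 in wild type. Over all 222 sites, 102 averaged under 1 in clr4d when the highest probe of the window was left out, 12 averaged under 0.7, and 183 had a window median of at least 1. Among the 10 sites with the highest running mean, 4 had a window median under 1, and these were the site at prl6 and those at 1893001, 3147301 and 3486601.

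Other high sites had several neighbouring tiles at like levels. On chromosome I, the 12 probes at 5091601 to 5095500 averaged 1.49 in clr4d (SD 0.67), 0.14 in cdc10-v50 (SD 0.26) and 0.04 in wild type (SD 0.29), with a peak running mean of 2.15 in clr4d. The tile at 5092201 read 2.82 in clr4d, 0.52 in cdc10-v50 and -0.40 in wild type. Its member tiles read between 0.48 and 2.82 in clr4d and between -0.54 and 0.41 in wild type, a separation that the rule favours. The longest site, 13 probes at 2832301 to 2837700, averaged 1.24 in clr4d (SD 0.28), 0.45 in cdc10-v50 (SD 0.25) and 0.21 in wild type (SD 0.28). Its span also held 4 probes with a clr4d running mean of at least 1 that were not members and are not in these means.

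The remaining long sites were also on chromosome I. The 9 probes at 3460501 to 3464100 averaged 1.21 in clr4d, 0.56 in cdc10-v50 and 0.32 in wild type. The 8 probes at 3534601 to 3537000 averaged 1.33 in clr4d, 0.53 in cdc10-v50 and 0.35 in wild type. The 7 probes at 4416901 to 4419600 averaged 1.44 in clr4d, 0.44 in cdc10-v50 and 0.11 in wild type. In these sites the cdc10-v50 mean lay between the other 2. Each mean covers member probes only, which the rule keeps low in the other arrays. The site at 4416901 lay in a clr4d stretch of 21 probes, 4413301 to 4420200. Of those 21, 14 were not members, 9 were at 1 or more in wild type and 6 in cdc10-v50. The 4 probes at 1499401 to 1500600 reached a running mean of 1.74 in clr4d, 0.54 in cdc10-v50 and 0.62 in wild type.

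On chromosome III, 4 probes at 1837801 to 1839000 averaged 1.69 in clr4d, -0.78 in cdc10-v50 and 0.30 in wild type, and 6 probes at 1922101 to 1923900 averaged 1.55 in clr4d, 0.51 in cdc10-v50 and 0.35 in wild type. The first of these was far below its array median in cdc10-v50. Among sites of 3 or more probes with a large difference between clr4d and wild type, 1095901 to 1097400 on chromosome I averaged 1.57 in clr4d, 0.12 in cdc10-v50 and -0.09 in wild type, and 2485801 to 2486700 averaged 1.30 in clr4d, 0.44 in cdc10-v50 and -0.27 in wild type. On chromosome II, 3985501 to 3987000 averaged 1.37 in clr4d, -0.25 in cdc10-v50 and -0.16 in wild type. The sites at 1278001 to 1278900 and 3763801 to 3764700 of chromosome II averaged 1.34 and 1.23 in clr4d, 0.48 and -0.09 in cdc10-v50, and -0.34 and -0.34 in wild type. Signals at the first of these were low: its brightest tile had an input of 14.4 in clr4d, 75.3 in cdc10-v50 and 37.0 in wild type, while the probes of the deleted clr4 gene read up to 10.7 in clr4d.

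**Figure D3:**
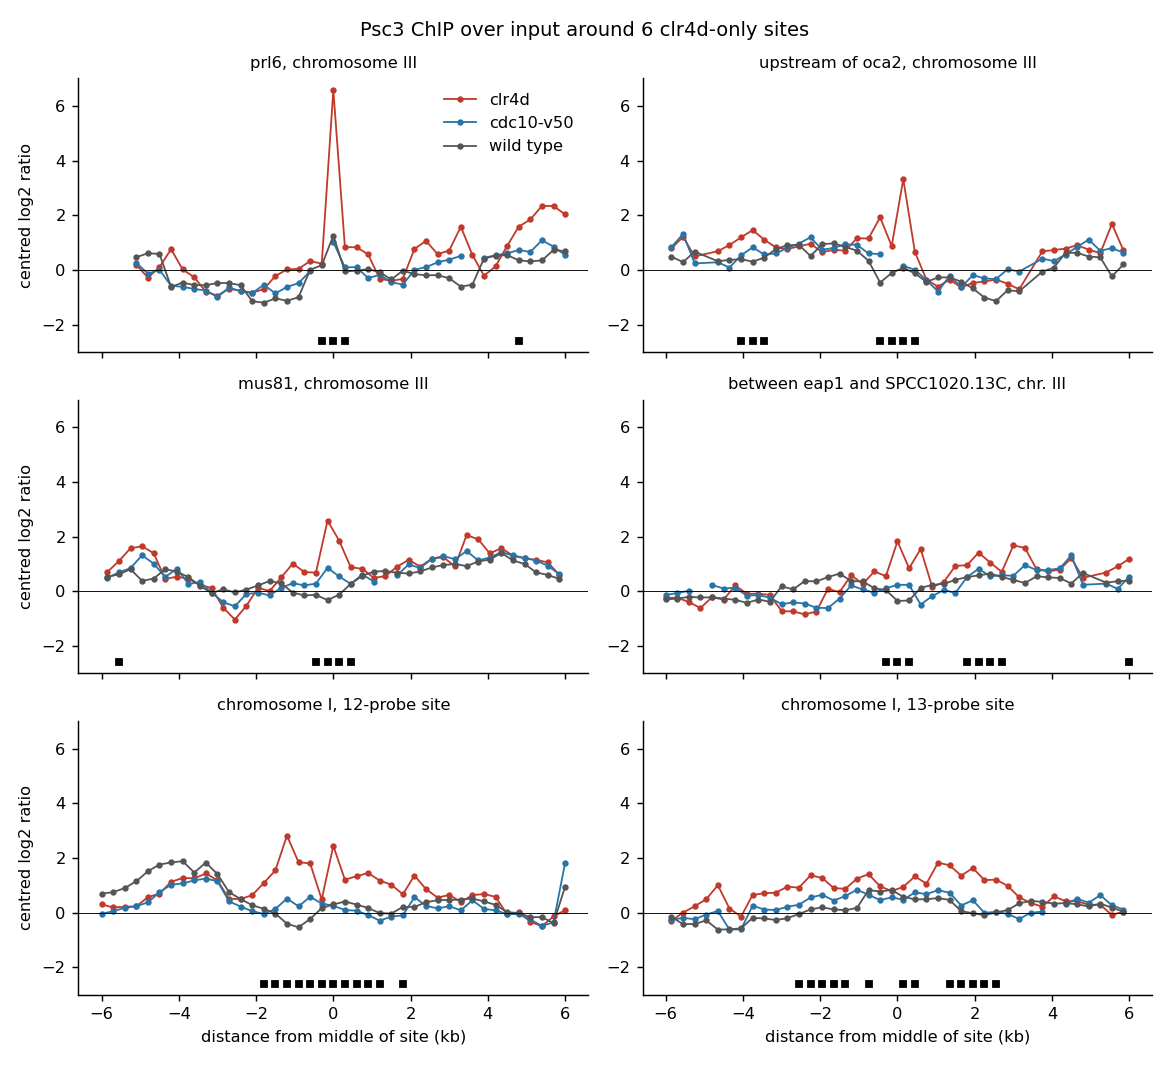
Centred log2 ChIP over input of each arm tile (vertical axis) against distance from the middle of the site in kb, for 6 sites, in clr4d (red), cdc10-v50 (blue) and wild type (grey); black squares mark member probes. The prl6 site holds 1 tile of 6.57 in clr4d, while the 12-probe and 13-probe sites of chromosome I are runs of tiles.

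The ratio is made of a ChIP and an input channel. The rule, which asks for a high ratio in clr4d and low ratios elsewhere, itself favours a higher ChIP and a lower input signal in clr4d, so the channel values are a description of the chosen probes. Relative to the arm median of its array, the ChIP signal of member probes had a median of 0.49 in clr4d, 0.09 in cdc10-v50 and -0.21 in wild type (log2). The input signal had a median of -0.73 in clr4d, -0.29 in cdc10-v50 and -0.46 in wild type. The input of clr4d was thus the lowest of the 3. The clr4d minus wild type difference had a median of 0.63 (SD 0.73) in the ChIP channel and -0.27 (SD 0.68) in the input channel, and the input was lower in clr4d at 365 of 525 probes. Against cdc10-v50 the medians were 0.33 (SD 0.82) in the ChIP channel and -0.41 (SD 0.62) in the input channel.

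By site, each channel was taken as the median over the member probes of the site on each array. In these medians 132 sites had a higher ChIP and a lower input signal in clr4d than in wild type. A higher ChIP signal with an input that was not lower was seen at 62, and a lower input with a ChIP signal not higher at 27. The rise of the ChIP median exceeded the fall of the input median at 135 sites and did not at 87. A site with 1 bright tile can thus be counted by its dimmer tiles. The site at 426301 to 427200 of chromosome I, with its tile of 4.77 in clr4d, read -0.56 for ChIP and -0.86 for input. At the tile between eap1 and SPCC1020.13C shown above, the ChIP signal was 336 in clr4d, 397 in cdc10-v50 and 277 in wild type, and the input was 97.3 in clr4d, 351 in cdc10-v50 and 314 in wild type. At the mus81 tile the ChIP signal was 1974 in clr4d, 2249 in cdc10-v50 and 1562 in wild type, over inputs of 561 in clr4d, 1608 in cdc10-v50 and 1509 in wild type. In both tiles the input differed more than the ChIP signal did. In the probes at 1 or more in wild type and below 0.7 in clr4d, chosen the opposite way, the clr4d minus wild type medians were -0.34 in the ChIP channel and 0.44 in the input channel. At sites high in all 3 arrays the input median was 0.06 in clr4d, 0.10 in cdc10-v50 and -0.16 in wild type.

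**Figure D4:**
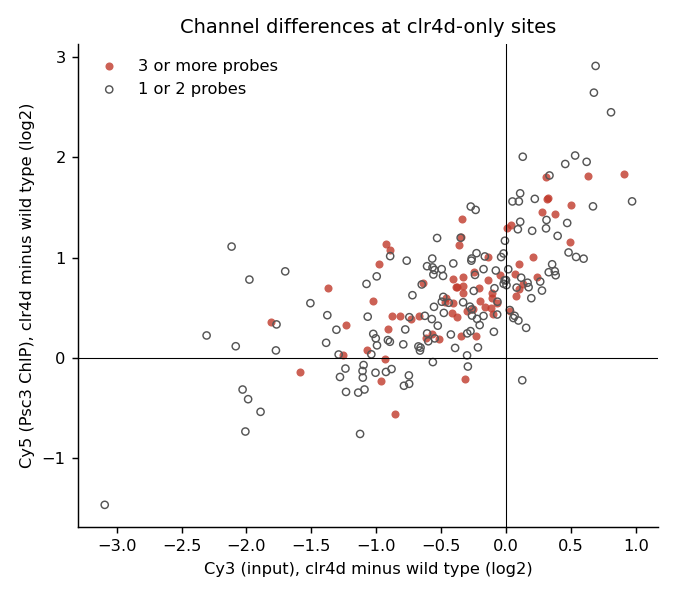
Difference of clr4d minus wild type in the ChIP channel (Cy5, vertical axis, log2) against that in the input channel (Cy3, horizontal axis, log2). Signals are relative to the arm median of their array. Each point is 1 of the 222 sites, at the median of its member probes on each array, filled for sites of 3 or more probes. Most points lie above 0 on the vertical axis and 132 lie in the upper left part, with a higher ChIP and a lower input signal.

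Genes could be named only from 100 to 1000 kb of chromosome III, where tile positions matched the ASM294v3 reference; elsewhere positions are the array's own. That stretch held 19 sites with 45 member probes, of 2858 arm probes, and 9 of the sites had 3 or more probes. They touched the coding span or annotated transcript of 20 of 351 protein-coding genes (5.7%), and 20 of 512 long noncoding RNA genes (3.91%). None of 13 ribosomal protein genes, 10 tRNA genes, 25 long terminal repeats or the 1 glycolysis gene was touched. Of 8 mug genes, named for their rise in meiosis, mug122 was touched, and of 5 chromatin and cohesin genes, cnd2, which encodes a condensin subunit.

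From the gap after eap1 to the upstream side of oca2 lay 4 sites. The highest, at 761401 to 762600, lay upstream of the oca2 coding sequence, in its annotated transcript. Its 4 tiles averaged 1.70 in clr4d (SD 1.22), 0.25 in cdc10-v50 (SD 0.30) and -0.15 in wild type (SD 0.23), and its brightest tile read 3.32 in clr4d, 0.15 in cdc10-v50 and 0.08 in wild type. The site between emc6, a gene of the endoplasmic reticulum membrane complex, and oca2, at 757801 to 758700, averaged 1.25 in clr4d, 0.64 in cdc10-v50 and 0.38 in wild type; these 2 genes converge. The site at the end of SPCC1020.13C, at 753601 to 754800, averaged 1.03 in clr4d, 0.62 in cdc10-v50 and 0.57 in wild type. The site between eap1 and SPCC1020.13C, at 751501 to 752400, averaged 1.08 in clr4d, 0.20 in cdc10-v50 and -0.21 in wild type. The 2 outer sites were below 0 in wild type, and the 2 inner ones were not.

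At mus81, a structure-specific endonuclease gene of recombination, and the end of mrpl4, a mitochondrial ribosomal protein gene, 4 tiles at 462301 to 463500 averaged 1.502 in clr4d (SD 0.89), 0.49 in cdc10-v50 (SD 0.28) and -0.07 in wild type (SD 0.25). At cox19, an assembly factor of cytochrome c oxidase, 3 tiles at 568201 to 569100 averaged 1.17 in clr4d, 0.27 in cdc10-v50 and -0.27 in wild type. Between wee1, the kinase that holds back entry into mitosis, and rsm18, a gene of the mitochondrial ribosome, 4 tiles at 724801 to 726000 averaged 1.26 in clr4d, 0.58 in cdc10-v50 and 0.17 in wild type. The site at 885001 to 887100 ran from the end of atg20, of the autophagy pathway, to the gap between tim23, of the mitochondrial import channel, and oca8. Its peak tile had its middle in the atg20 coding span. The 4 tiles of this site averaged 1.11 in clr4d, 0.46 in cdc10-v50 and 0.31 in wild type. Clr4d was the highest of the 3 arrays at each of these sites, as the rule requires, and cdc10-v50 lay above wild type.

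Averaged over all its coding tiles, mus81 averaged 1.16 in clr4d, 0.54 in cdc10-v50 and 0.36 in wild type (7 tiles), and cox19 averaged 1.04 in clr4d, 0.35 in cdc10-v50 and -0.04 in wild type (2 tiles). The wee1 coding tiles averaged 0.60 in clr4d, 0.34 in cdc10-v50 and 0.10 in wild type (9 tiles). By contrast cnd2 averaged 0.47 in clr4d, 0.17 in cdc10-v50 and 0.50 in wild type (8 tiles). The eap1 tiles averaged -0.34 in clr4d, -0.37 in cdc10-v50 and 0.36 in wild type (7 tiles). Over coding tiles, clr4d was also below wild type at ght1, gyp3, oca2 and atg20, and above it at all other touched protein-coding genes. A single tile of bir1, the fission yeast survivin, met the limits, although the gene averaged 1.40 in clr4d, 1.49 in cdc10-v50 and 1.07 in wild type over 10 tiles. That site lay inside a gene rich in Psc3 on every array.

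The other 9 sites of 1 or 2 probes read between 1.06 and 1.44 in clr4d at their peaks, between 0.18 and 0.68 in cdc10-v50 and between -0.22 and 0.69 in wild type. They lay near srp72, of the signal recognition particle; ght6 and ght1, of the hexose transporter family; SPCC794.03; mug122; cnd2; gyp3, a GTPase-activating protein gene; lyr2; and SPCC1795.12C.

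By the middle of the tile, 24.4% of member probes of the stretch fell in coding spans, 48.9% between tandem genes, 15.6% between convergent genes and 11.1% between divergent genes. All arm tiles of the stretch had 56.8% in coding spans, 20.01% between tandem, 6.65% between convergent and 16.6% between divergent genes. The 65 tiles high in all 3 arrays had 72.3% in coding spans, 10.8% between tandem, 15.4% between convergent and 1.54% between divergent genes. Of intergenic tiles alone, 20.6% of members, 55.6% of tiles high in all 3 arrays and 15.4% of all arm tiles were between convergent genes. Member tiles were thus more often intergenic than other arm tiles, with tandem intervals as their largest class. Tiles of 1 site share a neighbourhood, so the 45 tiles stand for 19 places.

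GC content moved with this. Member tiles had a median GC of 32.3% (SD 4.37), against 38.0% (SD 5.07) in tiles high in all 3 arrays and 36.3% (SD 5.40) in all arm tiles of the stretch. Among intergenic tiles the medians were 30.5% (SD 3.41) in members, 30.7% (SD 3.13) in tiles high in all 3 arrays and 32.3% (SD 4.46) in all. Within coding spans they were 37.7% (SD 3.11), 39.3% (SD 3.58) and 39.0% (SD 4.13). The GC of intergenic members was thus close to that of intergenic tiles high in all 3 arrays. Over the arm tiles of the stretch the ratio had a Pearson correlation with GC of -0.16 in clr4d (n = 2858 tiles), 0.05 in cdc10-v50 (n = 2787) and 0.28 in wild type (n = 2856); the tiles of an array share its library and its amplification. In the lowest quartile of GC, the median ratio was 0.10 in clr4d, -0.16 in cdc10-v50 and -0.42 in wild type, and the median input signal was -0.93 in clr4d, -0.42 in cdc10-v50 and -0.48 in wild type (log2, against the arm median). When a smooth curve of the ratio on GC was taken off each array, 14 of the 19 sites still held a member probe, and the median clr4d minus wild type difference at the 45 member probes was 0.63 (SD 0.95), against 0.89 (SD 0.93) unadjusted. The sites at prl6, oca2, mus81 and cox19 and that between eap1 and SPCC1020.13C were among the 14. The part of GC in the sites of the rest of the genome was not tested.

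**Figure D5:**
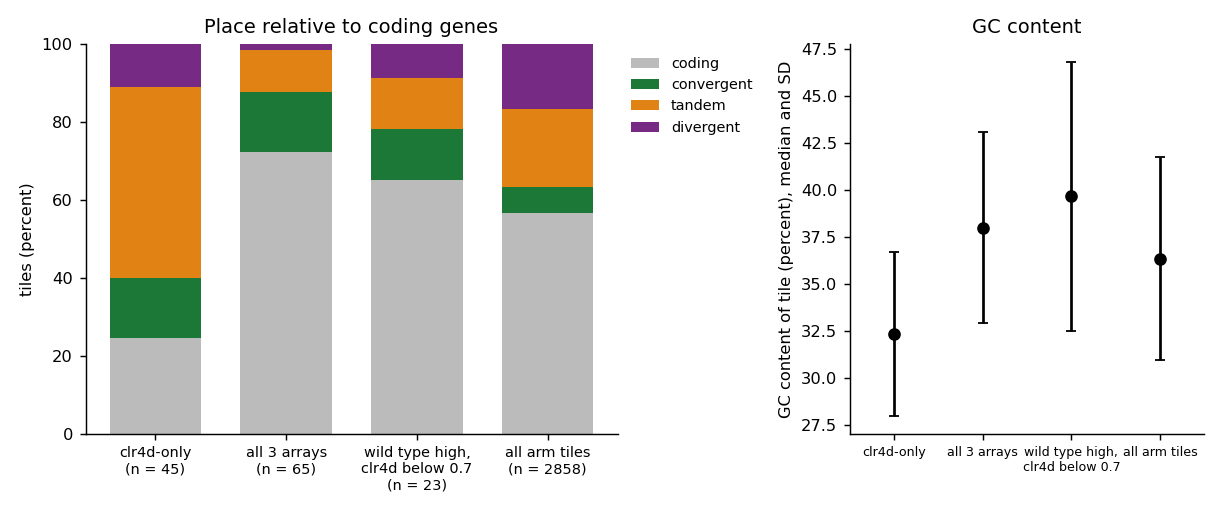
Left, share of tiles (percent) by place relative to coding genes on the matched stretch of chromosome III, for members, tiles high in all 3 arrays, tiles high in wild type and below 0.7 in clr4d, and all arm tiles; right, median GC content of the same tiles (percent, bars are SD over tiles). Members have 48.9% of tiles between tandem genes and the lowest median GC, 32.3%. These GC medians take coding and intergenic tiles together.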

How the data were processed

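Values are from 3 two-colour Agilent arrays, 1 per group. Per the labels' protocols, amplified ChIP DNA carried Cy5 and input DNA Cy3, with no dye swap. Per the file headers, Agilent Feature Extraction made the deposited processed intensity of each channel (background-subtracted and dye-normalized) and flags for saturated and non-uniform spots, here used as other, 0 or 1 values; the deposited log10 ratio was used only as a check. The authors' deposited value table holds log2 of input over ChIP, opposite in sign to the ratios here, and equals them within 0.001 on 41551 of 41551 probes of each array, uncentred (column medians 0.04 for clr4d, 0.06 for cdc10-v50 and -0.17 for wild type).

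From these, log2 of red over green processed signal was centred on each array's median, without loess or quantile steps; non-uniform spots were left out (9 genome probes in clr4d, 1215 in cdc10-v50 and 62 in wild type), saturated ones kept. A running mean needed at least 2 of its 3 probes. The members, gene lists and comparisons were chosen with earlier results of these data known. No test between arrays was run, since there is 1 array per group; the number of arrays limits the precision. Sites named are the 10 highest in clr4d, the 10 with the largest clr4d minus wild type difference among sites of 3 or more probes, the 5 longest, and all on the matched stretch. No source used here names the build of the array. Its positions were set against ASM294v3 through the correlation of input signal with GC, which on the stretch was best at a shift of 40 bp (between -130 and 40 bp in its 100-kb pieces), so a tile's bases are uncertain by about that much. Site finding was tested on simulated data. Alternatives (normexp with an offset of 50, on the median and local background intensity as deposited; loess; scaling; other limits and windows) are given below. Python 3.11.15, R 4.3.3 and limma 3.58.1 were used. The files held 0 other columns of per-sample values.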

Additional observations from a re-analysis of the deposited data

How the results depend on the processing

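The number of sites was 222 with 525 probes. Asking for at least 3 member probes a site left 72 sites with 305 probes. Other limits gave 92 sites and 192 probes at a clr4d threshold of 1.2, 455 and 1219 at 0.8, 136 and 271 at an upper limit of 0.5, and 306 and 828 at an upper limit of 0.9. A running mean over 5 probes left 127 sites, and arrays scaled to one SD left 322 probes. Counts stayed within 1.5 times under the other settings, but not always the same probes: normexp kept 230 of the 525 and loess 326, a running median (chosen after seeing the data) 375, and centring on arm probes 448. The cause was not tested. The median clr4d minus wild type difference at the same 525 member probes ranged between 0.80 (loess) and 1.03 (normexp). The main ratios chose these probes for such a difference, so a large value under the other settings follows in part from the rule. With GC content taken off (chosen after seeing the data), the matched stretch held 15 sites in place of 19. No paired analysis was possible because each group has 1 array. By the scanner's flag, 0 member probes were not well above background on any array; but the background correction decided much of the membership, and under normexp wild type gave 424 sites alone, against 276 for clr4d, so these counts depend on how background is treated; the part of dim probes was not tested.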
